A study of Homo sapiens with 6 samples.

Results

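The genes described here are CTCFL, its somatic paralogue CTCF, PRAME and 6 X-linked germline antigen genes (MAGEA1, MAGEA3, MAGEA6, MAGEA12, MAGEB2 and SSX1), followed in MTX-resistant and parental K562 cells. They were chosen by name, with their measured values in these same arrays known. Their values in resistant against parental cells are therefore given as a description, and calls among them are not used as a test. The 9 genes stand among 19775 genes named on the array, and 10 of its 54675 probe sets (groups of short oligonucleotides, each group matched to the transcripts of a gene) carry them. MAGEA3 is read only by a probe set shared with MAGEA6, SSX1 has 2 probe sets, and 5 of the 10 carry the suffix _x_at, by which the manufacturer marks probes that may also bind related transcripts.

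K562 is an established human erythroleukaemia line. The 3 resistant arrays came from K562 cells that withstand the antifolate methotrexate (MTX), grown in selective medium that lacks thymidine, hypoxanthine and glycine, with serum that had been dialysed. Labels of the resistant samples give the MTX concentration as 10e-5 M, quoted here as written. The 3 parental arrays came from MTX-sensitive K562 cells grown in Ham's F12 with undialysed serum, so the effects of resistance and of medium cannot be told apart. The study compared them to find transcripts that differ once cells resist MTX. Nothing in the labels says that replicates were separate cultures, and p-values then measure only the spread between these samples.

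Germline antigens, also called cancer/testis antigens, are proteins made in male germ cells, silent in most adult tissues and made again in many tumours. Many of their genes lie on the X chromosome in families of near-identical copies, and methylation of CG dinucleotides at their promoters is a known means of keeping them silent. CTCF is a zinc finger protein of all cells that binds DNA with the core CCCTC and, together with the cohesin ring, sets the ends of chromatin loops. CTCFL, also called BORIS, has nearly the same zinc fingers between different ends, and is normally made in male germ cells. PRAME is the substrate receptor of a CUL2 ubiquitin ligase and a known repressor of retinoic acid receptors. MAGE proteins bind ubiquitin ligases and direct them to new targets, and SSX1 is a nuclear repressor best known as a fusion partner of SS18 in synovial sarcoma.

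The promoters of 5 genes are printed because their CG content differs, and because the one for MAGEA3 and the one for MAGEA6 have the same letters. Each is the RefSeq window from 250 bases before to 50 after an annotated start on GRCh38.p14, written 5′ to 3′ on the gene's own strand with each CG dinucleotide in capitals. Of the 9 genes, 8 matched that table, with 13 windows in all, and where a gene has several starts the window with the most CG is shown. The windows are CTCFL at chr20:57524648-57524947 on the minus strand, SSX1 at chrX:48255142-48255441 on the plus strand, MAGEA3 at chrX:152698544-152698843 on the plus strand, PRAME at chr22:22559216-22559515 on the minus strand and CTCF at chr16:67562276-67562575 on the plus strand.
CTCFL: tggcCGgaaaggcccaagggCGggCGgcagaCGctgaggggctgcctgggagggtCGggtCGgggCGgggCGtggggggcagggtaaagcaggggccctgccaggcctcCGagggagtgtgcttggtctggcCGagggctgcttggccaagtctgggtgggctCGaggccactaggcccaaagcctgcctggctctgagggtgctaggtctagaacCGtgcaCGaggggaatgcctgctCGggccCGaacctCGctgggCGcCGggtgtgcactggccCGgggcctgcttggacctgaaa
SSX1: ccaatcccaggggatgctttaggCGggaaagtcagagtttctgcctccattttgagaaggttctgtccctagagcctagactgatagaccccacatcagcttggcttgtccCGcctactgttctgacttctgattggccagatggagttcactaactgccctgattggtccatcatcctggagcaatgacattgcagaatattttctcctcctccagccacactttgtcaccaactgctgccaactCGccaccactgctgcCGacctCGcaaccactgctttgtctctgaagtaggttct
MAGEA3: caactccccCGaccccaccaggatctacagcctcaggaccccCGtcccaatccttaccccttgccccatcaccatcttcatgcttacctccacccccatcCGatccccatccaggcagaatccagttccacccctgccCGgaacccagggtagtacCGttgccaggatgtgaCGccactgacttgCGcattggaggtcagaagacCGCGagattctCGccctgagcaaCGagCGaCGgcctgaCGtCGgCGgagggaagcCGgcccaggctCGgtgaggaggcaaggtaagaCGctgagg
PRAME: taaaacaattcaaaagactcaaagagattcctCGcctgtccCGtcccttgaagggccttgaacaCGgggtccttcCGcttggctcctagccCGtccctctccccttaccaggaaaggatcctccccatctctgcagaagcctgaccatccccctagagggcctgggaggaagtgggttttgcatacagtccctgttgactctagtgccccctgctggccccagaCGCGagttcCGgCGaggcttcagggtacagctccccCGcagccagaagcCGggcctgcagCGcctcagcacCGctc
CTCF: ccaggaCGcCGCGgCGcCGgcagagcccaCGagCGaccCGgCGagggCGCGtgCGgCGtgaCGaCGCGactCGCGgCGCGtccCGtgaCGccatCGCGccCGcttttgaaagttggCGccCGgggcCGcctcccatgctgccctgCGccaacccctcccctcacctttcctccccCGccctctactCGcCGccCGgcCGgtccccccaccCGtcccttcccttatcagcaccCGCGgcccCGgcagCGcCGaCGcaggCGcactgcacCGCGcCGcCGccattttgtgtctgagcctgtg
The CTCF window held 46 CG, a number that 2.9% of the 35116 windows in the table reached. The CTCFL and MAGEA3 windows held 19 each and the PRAME window 13, close to the median of 14 over all windows. Windows at the other annotated starts, not printed, held 15 and 2 for CTCFL and 4 and 12 for PRAME. The SSX1 window held 5, and MAGEB2, whose window is not printed, held 21. The MAGEA6 window, at chrX:152769640-152769939 on the minus strand, differed from that of MAGEA3 at 0 of 300 bases. The letters CCGGAA, which hold the core bound by ETS factors and contain a CG themselves, were searched on both strands and matched 1 time each in the CTCFL, PRAME and MAGEA3 windows and 0 times in those of SSX1 and CTCF, and 17.2% of all windows hold them. The letters CCCTC, the short core in CTCF's name, matched 6 times in the CTCFL window, 4 in CTCF, 2 in PRAME, 1 in MAGEA3 and 0 in SSX1, against 71.2% of windows with at least 1 match. Methylation was not measured on these arrays.

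Levels below are intensities divided by the median of their array, so that a level of 1 is the array median and lower values lie in the range of background. A probe set was tested where its level averaged at least 1 over the 6 arrays, which 26692 did, and was called where limma's adjusted p was under 0.05 and the change at least 2-fold. By this rule the calls took in 1.20% of tested probe sets as higher and 1.14% as lower in resistant cells. In 27.2% the 2 groups did not overlap, and in 12.3% all resistant arrays lay below all parental arrays. A probe set at background in 1 group can pass the level filter only through the other group, so its direction is then largely set by the filter. Parental array 1 stood apart from its group, with rank correlations of 0.899 and 0.889 to parental arrays 2 and 3 against 0.969 between those 2, and the resistant pairs gave 0.941 to 0.968. Some of the values in which parental array 1 stands apart, but not all, are given without it as well. Of 17 erythroid markers, 11 were tested, with a summed level of 1273 to 1542 in resistant arrays and 1822 to 1892 in parental arrays. Only 1, embryonic globin HBE1, was called lower, and it alone had groups that did not overlap. HBE1 averaged 61.6 ± 20.8 in resistant cells and 601 ± 60.6 in parental cells (SD, n = 3 each, log2 -3.35). It weighs heavily in these sums, and the median log2 difference of the 11 was -0.09, so the sums do not show a broad erythroid fall. Fetal and zeta globin probe sets (HBG1 and HBG2, HBZ), markers of the K562 line, stood between 551 and 940 in every array. Of 10 epithelial markers tested, 9 were higher in parental array 1 than in the mean of the other 2 parental arrays, and their summed level was 234 to 322 in resistant arrays, 654 in parental array 1 and 345 and 279 in parental arrays 2 and 3. The 5 tested leukocyte markers summed to 22.6 to 31.5 in resistant arrays, 155 in parental array 1 and 96.9 and 99.2 in parental arrays 2 and 3, and among them PTPRC read 6.50 to 9.60 in resistant arrays, 60.2 in parental array 1 and 0.374 and 0.402 in parental arrays 2 and 3. CD3D (0.919, 2.14 and 0.0784 in resistant arrays, 50.3, 31.9 and 35.2 in parental arrays) and LYZ (21.3, 19.4 and 10.1 in resistant arrays, 42.1, 60.9 and 60.5 in parental arrays) were high in all 3 parental arrays and were not called. Of 6 markers of melanocytes, another cell type known for PRAME and MAGE transcripts when malignant, 2 were tested, summing to 23.9 to 31.0 in resistant arrays and 9.40 to 26.0 in parental arrays. The part of other cells in the values of that array was not tested.

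Of the 10 probe sets of the 9 genes, 9 were tested, 1 (CTCFL) was called lower and 0 were called higher. In 4 the groups did not overlap, and in each of the 4 the resistant arrays were the lower ones. These shares rest on the same arrays by which the genes were chosen, and nothing is read from them beside the background shares. The median log2 difference of the 9 was -0.17, against 0.03 over all tested probe sets.

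CTCFL was below the array median in resistant cells and well above it in parental cells. Its probe set (1552368_at) read 0.0488, 0.696 and 0.343 in resistant arrays 1 to 3, against 30.7, 30.8 and 31.7 in parental arrays 1 to 3. The parental arrays lay within a coefficient of variation of 1.73%, parental array 1 among them, and all 3 resistant arrays lay in the range of background, where their order carries no information. The log2 difference was -7.10 (SE 0.913, n = 3 each). A fold against background is less certain than its size implies, and with the resistant level put at the array median the parental mean was still 31.1-fold above it. Without any 1 array the difference lay between -7.91 and -5.99. CTCFL was chosen with these values known, so neither its call nor a count of settings is evidence for the difference. As a description, the call of CTCFL stood in 11 of the 17 alternative settings. It was lost with no level filter, by the methods' t-test and without parental array 2 or 3 or resistant array 3. It was also lost without parental array 1 and resistant array 3 together. In bulk RNA, fewer cells with the transcript and less transcript per cell cannot be told apart.

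CTCF, which every dividing cell needs, gave 33.8, 28.5 and 34.7 in resistant arrays and 31.0, 28.8 and 29.6 in parental arrays (202521_at). The groups overlapped, with a log2 difference of 0.11 (SE 0.201), so the somatic paralogue showed no separation of the groups in the arrays where CTCFL differed most among the 9 genes. It averaged 32.3 ± 3.36 in resistant cells and 29.8 ± 1.14 in parental cells (SD, n = 3 each).

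PRAME was strongly expressed in all 6 arrays. It read 388, 288 and 289 in resistant arrays and 397, 334 and 306 in parental arrays (204086_at), which overlap. The log2 difference was -0.11 (SE 0.233), and -0.01 without parental array 1.

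**Figure D1:**
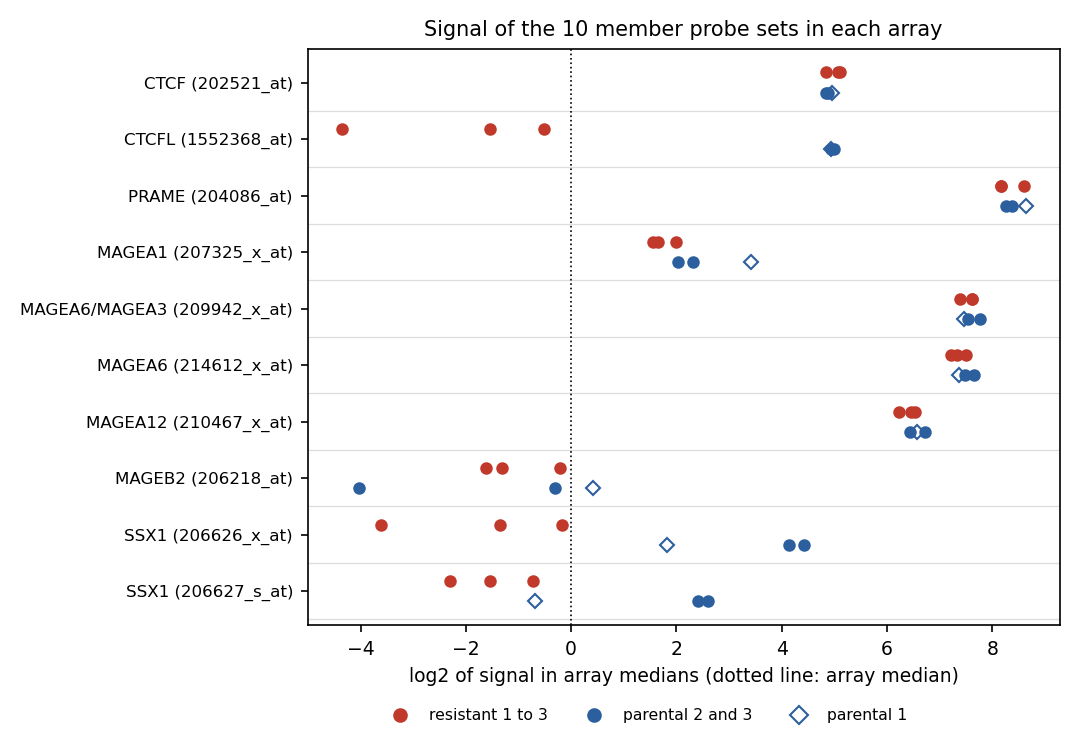
Level of each of the 10 probe sets of CTCF, CTCFL, PRAME, the MAGE genes and SSX1 in each array, as log2 of the multiple of the array median, with resistant arrays above parental arrays and parental array 1 as an open diamond. CTCFL and SSX1 lie below the median in all 3 resistant arrays, whereas PRAME, MAGEA3, MAGEA6, MAGEA12 and CTCF overlap between groups.

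The MAGEA genes followed here belong to a cluster on Xq28, and the products of MAGEA3 and MAGEA6 bind the ligase TRIM28. MAGEA3, MAGEA6 and MAGEA12 read well above the array median in both lines, and MAGEA1 was nearer to it. The probe set shared by MAGEA3 and MAGEA6 (209942_x_at) gave 195, 168 and 195 in resistant arrays and 177, 217 and 187 in parental arrays, a log2 difference of -0.06 (SE 0.206). The one for MAGEA6 (214612_x_at) gave 160, 149 and 182 in resistant arrays and 165, 201 and 180 in parental arrays, a difference of -0.15 (SE 0.208). For MAGEA12 (210467_x_at) the levels were 88.0, 74.6 and 92.4 in resistant arrays and 95.3, 105 and 86.5 in parental arrays, a difference of -0.17 (SE 0.210). All 3 probe sets overlapped between groups, and as _x_at sets they may each read several of these near-identical transcripts. MAGEA1 (207325_x_at) gave 3.15, 3.98 and 2.95 in resistant arrays and 10.7, 4.95 and 4.10 in parental arrays. Its groups did not overlap, but parental array 1 was 2.36 times the mean of the other 2 parental arrays, and the log2 difference of -0.85 (SE 0.392) became -0.43 without it.

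MAGEB2, from the second MAGE cluster on the short arm of X, was not above background in either line. Its probe set (206218_at) gave 0.862, 0.400 and 0.324 in resistant arrays and 1.33, 0.0611 and 0.811 in parental arrays, did not reach the level needed for testing, and gave no usable difference (log2 0.25, SE 1.22).

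SSX1 was in the range of background in resistant cells and above it in parental arrays 2 and 3. The first probe set (206626_x_at) read 0.0813, 0.888 and 0.392 in resistant arrays, against 3.52, 21.5 and 17.7 in parental arrays, a log2 difference of -5.18 (SE 1.03). The second (206627_s_at) read 0.203, 0.608 and 0.343 in resistant arrays, against 0.622, 5.31 and 6.06 in parental arrays, a difference of -2.96 (SE 0.921). On both, parental array 1 was the low one of its group, and the mean of the other 2 was 5.56 and 9.13 times its level. Without parental array 1 the differences were -6.00 and -4.02. Parental array 1 thus matched its group for CTCFL and departed from it for SSX1.

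Other members of the same families were taken from lists made by family and role. The MAGE list held 32 further genes, of which 9 had a tested probe set of their own, and 0 were called higher and 2 lower (2 had an unadjusted p under 0.05 by limma). Among all 11810 genes, each read by its brightest tested probe set, the shares called were 1.30% for higher and 1.47% for lower. MAGEC2, which like MAGEA3 binds TRIM28, read 0.407, 0.912 and 0.980 in resistant arrays and 22.9, 38.8 and 35.5 in parental arrays. It fell by 5.47 on the log2 scale (SE 0.411, adjusted p = 0.00305 by limma), and the call stood without any 1 array, at adjusted p of 0.00414 to 0.0223. MAGEC1, the neighbour of MAGEC2 in the family, read 37.1, 33.4 and 39.9 in resistant arrays and 26.0, 37.7 and 27.0 in parental arrays. It was not called (log2 0.30, adjusted p = 0.536).

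MAGED1, a MAGE gene of normal adult tissues that binds the p75 neurotrophin receptor, read 0.106, 1.31 and 0.225 in resistant arrays and 25.5, 9.57 and 13.9 in parental arrays. It fell by 5.57 (SE 0.917, adjusted p = 0.0360 by limma). Its call was lost without resistant array 1 or 3 or any 1 of the parental arrays, with adjusted p of 0.0578 to 0.123, while the log2 difference lay between -6.60 and -4.79 without any 1 array. The other tested MAGE relatives were not called, among them MAGEF1 with 13.4 ± 0.700 in resistant cells and 11.9 ± 3.82 in parental cells (SD, n = 3 each). Shared probe sets for MAGEA2 and MAGEA2B showed overlapping groups, at 53.8 to 69.5 in resistant arrays and 51.4 to 56.4 in parental arrays on the brighter set. The set shared by MAGEA9 and MAGEA9B did not overlap, at 1.27, 0.208 and 1.11 in resistant arrays and 3.05, 2.11 and 6.29 in parental arrays. It was not called (log2 -2.37, adjusted p = 0.174 by limma). The median over the 9 genes was -0.26.

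Among 77 other X-linked germline antigen genes, 5 had a tested probe set of their own and 0 were called in either direction, while 4 had an unadjusted p under 0.05 by limma. The median log2 difference of the 5 was -2.06. SSX3 (mean 0.0983 in resistant cells, 3.36 in parental cells) and CT55 (0.968 and 5.47) passed the level filter only through parental arrays. XAGE2 (1.61 and 0.737) passed it through resistant arrays. The filter thus shapes this median, and nothing is read from it. PASD1 read 0.780, 1.49 and 1.72 in resistant arrays, against 2.26, 8.85 and 8.20 in parental arrays. CT55 read 0.959, 1.07 and 0.873 in resistant arrays, against 1.10, 8.01 and 7.31 in parental arrays. Both showed the order seen in SSX1, with parental array 1 the lowest of its group. Without parental array 1, PASD1 (adjusted p = 0.0224), CT55 (0.00372) and SSX3 (0.00137) were called lower. Each was called in 2 of the 17 alternative settings, both without parental array 1. With another array left out, their adjusted p by limma reached 0.324, 0.436 and 0.252. XAGE2 ran the other way, at 1.61, 1.55 and 1.66 in resistant arrays and 1.06, 0.328 and 0.827 in parental arrays, and was not called (log2 1.28, adjusted p = 0.192, and 1.62 without parental array 1, adjusted p = 0.0979). CT83 averaged 6.04 ± 1.12 in resistant cells and 8.60 ± 1.83 in parental cells (SD, n = 3 each, adjusted p = 0.370).

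Most of these families are read by probe sets that name several genes, of which 14 were tested, with 0 called higher and 2 lower. The probe set of XAGE1A and XAGE1B (220057_at), relatives of the GAGE genes, read 0.293, 0.136 and 0.549 in resistant arrays and 73.5, 83.0 and 62.1 in parental arrays. It fell by 8.02 on the log2 scale (adjusted p = 0.00182 by limma), and it was called in each of the 17 alternative settings tried. All 3 parental arrays were high, as for CTCFL. The probe set of SSX2 and SSX2B (216471_x_at) read 0.114, 0.0800 and 0.118 in resistant arrays and 1.55, 11.0 and 13.2 in parental arrays. It fell by 5.90 (adjusted p = 0.0201), and by 6.88 without parental array 1 (adjusted p = 0.00135), but the call was lost when resistant array 1, 2 or 3 or parental array 2 or 3 was left out (adjusted p = 0.0554 to 0.0953).

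The tested SSX and GAGE probe sets ran in opposite directions and shared the position of parental array 1. Over the 7 tested SSX probe sets other than those of SSX1, levels were 0.0588 to 1.03 in resistant arrays, 0.329 to 1.96 in parental array 1 and 1.37 to 15.3 in parental arrays 2 and 3. All resistant arrays lay below all parental arrays in 6 of the 7, and parental array 1 was the lowest parental array in all 7. Of 12 such probe sets on the array only these 7 were tested. With resistant levels this low they passed the level filter through parental arrays, so their direction was largely fixed by the filter. With all arrays 1 was called lower, and without parental array 1, 6 were. Over the 4 tested GAGE probe sets, which each name several GAGE genes, levels were 162 to 216 in resistant arrays, 146 to 172 in parental array 1 and 30.4 to 46.4 in parental arrays 2 and 3. With all arrays 0 of the 4 were called and their adjusted p was 0.189 to 0.216, and without parental array 1 all 4 were called higher, with log2 differences of 2.28 to 2.47. The GAGE sets were called only in settings without parental array 1. With another array left out, their adjusted p by limma reached 0.407 to 0.436. The SSX probe sets overlap in the transcripts they read, and so do the GAGE sets, so these are not independent counts.

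**Figure D2:**
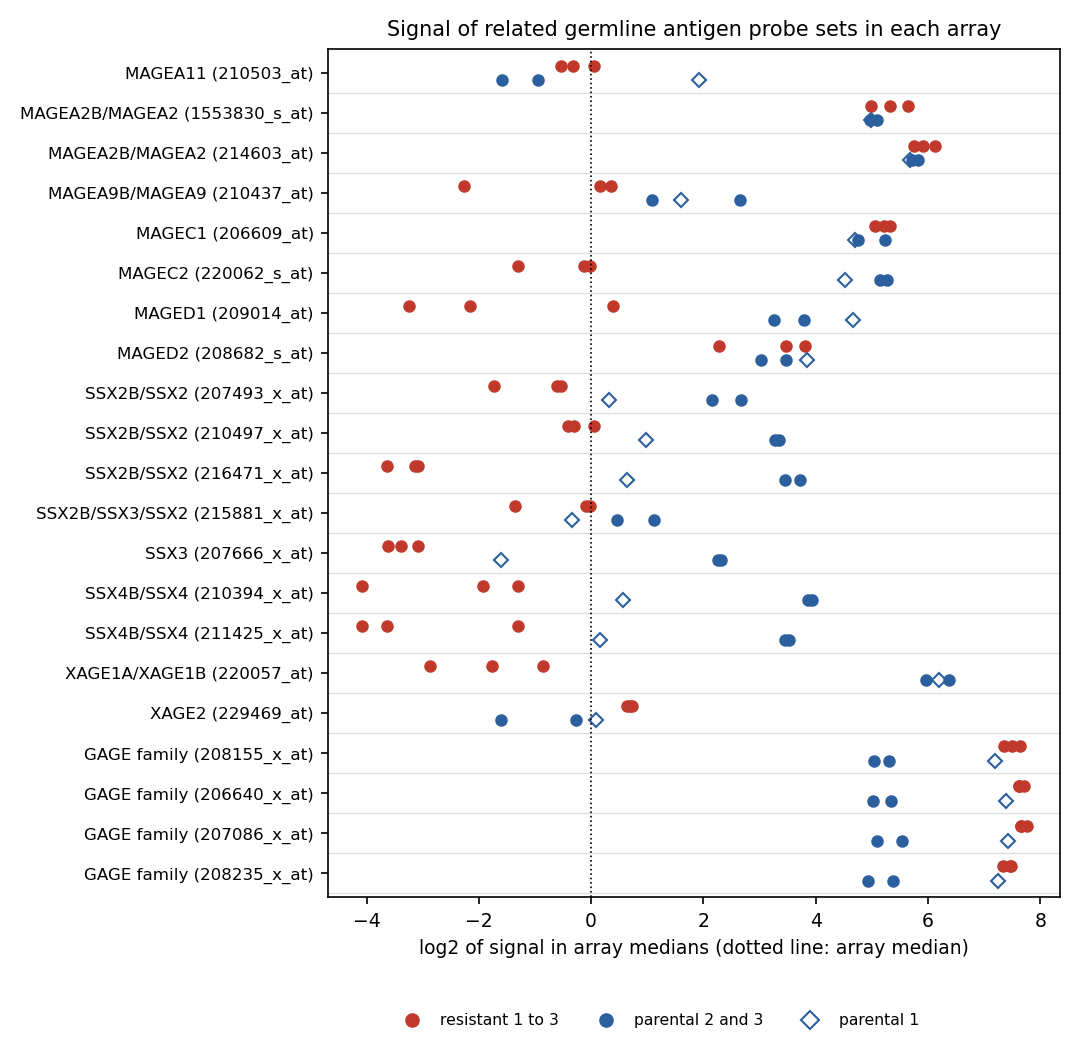
Level of tested probe sets of MAGE relatives and of the SSX, XAGE and GAGE families in each array, as log2 of the multiple of the array median, with resistant arrays above parental arrays and parental array 1 as an open diamond. XAGE1A/XAGE1B and MAGEC2 are low in all resistant arrays and high in all parental arrays, whereas parental array 1 lies below parental arrays 2 and 3 on SSX probe sets and above them on GAGE probe sets.

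Few autosomal germline and meiosis genes reached the level for testing. Of 57 listed, 14 did, 0 were called and 2 had an unadjusted p under 0.05 by limma, with a median log2 difference of -0.18. SYCP2, a component of the synaptonemal complex that holds paired chromosomes in meiosis, was present in both lines, at 23.7, 24.4 and 37.5 in resistant arrays and 22.5, 24.2 and 21.0 in parental arrays. SPA17, a sperm surface protein, averaged 7.06 ± 2.55 in resistant cells and 10.5 ± 5.21 in parental cells. SYCE1, another component of that complex, averaged 1.37 ± 0.655 in resistant cells and 4.45 ± 0.657 in parental cells (SD, n = 3 each) and was not called (log2 -1.82, adjusted p = 0.0861).

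Transcripts of proteins that work with CTCF on chromatin came next. All 22 listed cohesin and CTCF partner genes were tested, 0 were called and 3 had an unadjusted p under 0.05 by limma, and the median log2 difference was -0.04. In 7 of the 22 the groups did not overlap, against 27.2% of all tested probe sets, and nothing is read from that count. The summed level of the 22 genes was 1139 to 1301 in resistant arrays and 1085 to 1237 in parental arrays. NPM1, a nucleolar protein that binds CTCF, averaged 526 ± 27.0 in resistant cells and 418 ± 45.4 in parental cells (adjusted p = 0.424). YY1, a zinc finger factor found at loops between promoters and enhancers, averaged 91.7 ± 17.1 in resistant cells and 96.3 ± 11.1 in parental cells. SMC1A, a core arm of the cohesin ring, averaged 80.0 ± 20.9 in resistant cells and 92.6 ± 6.21 in parental cells on its brightest probe set (SD, n = 3 each). A dimmer probe set of SMC1A (239688_at), named after its values were seen, gave 3.98, 4.40 and 4.16 in resistant arrays and 2.05, 2.06 and 1.93 in parental arrays. It was called higher (log2 1.05, adjusted p = 0.0484 by limma), opposite in sign to the brighter one, and lost the call without any 1 of the 6 arrays (adjusted p = 0.0518 to 0.182).

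STAG2, a cohesin subunit named here after its values were seen, read 52.2, 38.6 and 53.2 in resistant arrays and 97.5, 96.7 and 82.6 in parental arrays. The groups did not overlap, and a log2 difference of -0.95 (SE 0.228, adjusted p = 0.0958 by limma) was not called. Its 2 other probe sets were also lower in all resistant arrays, by 0.83 and 1.13 on the log2 scale, and were not called either (adjusted p = 0.134 and 0.105).

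PRAME's partners and the retinoic acid pathway, which PRAME is known to repress at the receptor, gave 18 tested genes of 25 listed. By representative probe set 0 were called and 6 had an unadjusted p under 0.05 by limma, with a median log2 difference of -0.22. The ligase subunits ELOB (168 ± 17.9 in resistant cells, 170 ± 6.30 in parental cells), ELOC (144 ± 33.5 in resistant cells, 115 ± 33.1 in parental cells) and RBX1 (73.8 ± 9.49 in resistant cells, 97.9 ± 7.26 in parental cells) were present in both lines, with adjusted p of 0.350 to 0.972.

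The gene with the largest difference on this list was ALDH1A2, which makes retinoic acid from retinaldehyde and is named here after its values were seen. On its brighter probe set it read 0.0569, 0.960 and 0.853 in resistant arrays and 120, 14.2 and 8.98 in parental arrays, a log2 difference of -6.11 (SE 1.38, adjusted p = 0.0857 by limma). The dimmer one (207015_s_at) read 0.0732, 0.232 and 0.157 in resistant arrays and 20.0, 4.80 and 3.86 in parental arrays, and was called (log2 -5.69, adjusted p = 0.0154), but not without resistant array 1, 2 or 3 (adjusted p = 0.0539 to 0.0595). Parental array 1 was the highest on both, and without it the differences were -4.97 (not called) and -4.96 (adjusted p = 0.00903). TGM2, a transglutaminase induced by retinoic acid, averaged 4.44 ± 2.34 in resistant cells and 13.0 ± 0.858 in parental cells (SD, n = 3 each) on its brightest probe set and was not called (adjusted p = 0.103). A dimmer probe set of TGM2 was called lower (211573_x_at, log2 -2.30, adjusted p = 0.0310), and lost the call without resistant array 2 or 3 or parental array 2 or 3 (adjusted p = 0.0923 to 0.126). RDH10, of the same list, ran the other way, at 26.6, 21.8 and 29.3 in resistant arrays and 21.8, 7.54 and 7.12 in parental arrays. It was not called (log2 1.29, adjusted p = 0.205 by limma), but was called higher without parental array 1 (log2 1.81, adjusted p = 0.0171). With another array left out, its adjusted p by limma reached 0.433.

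Of 10 genes for ligases that MAGE proteins bind and for their targets, 7 were tested, 0 were called and 1 had an unadjusted p under 0.05 by limma, with a median log2 difference of -0.27. TRIM28, the partner of MAGEA3, MAGEA6 and MAGEC2, averaged 72.6 ± 23.1 in resistant cells and 85.2 ± 3.93 in parental cells. TRIM27, a ligase of endosomes bound by MAGE-L2, averaged 39.8 ± 5.10 in resistant cells and 40.0 ± 4.32 in parental cells. NSMCE1, a ligase subunit of the SMC5/6 complex that holds a MAGE protein, averaged 50.4 ± 2.01 in resistant cells and 43.0 ± 19.6 in parental cells (SD, n = 3 each).

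**Figure D3:**
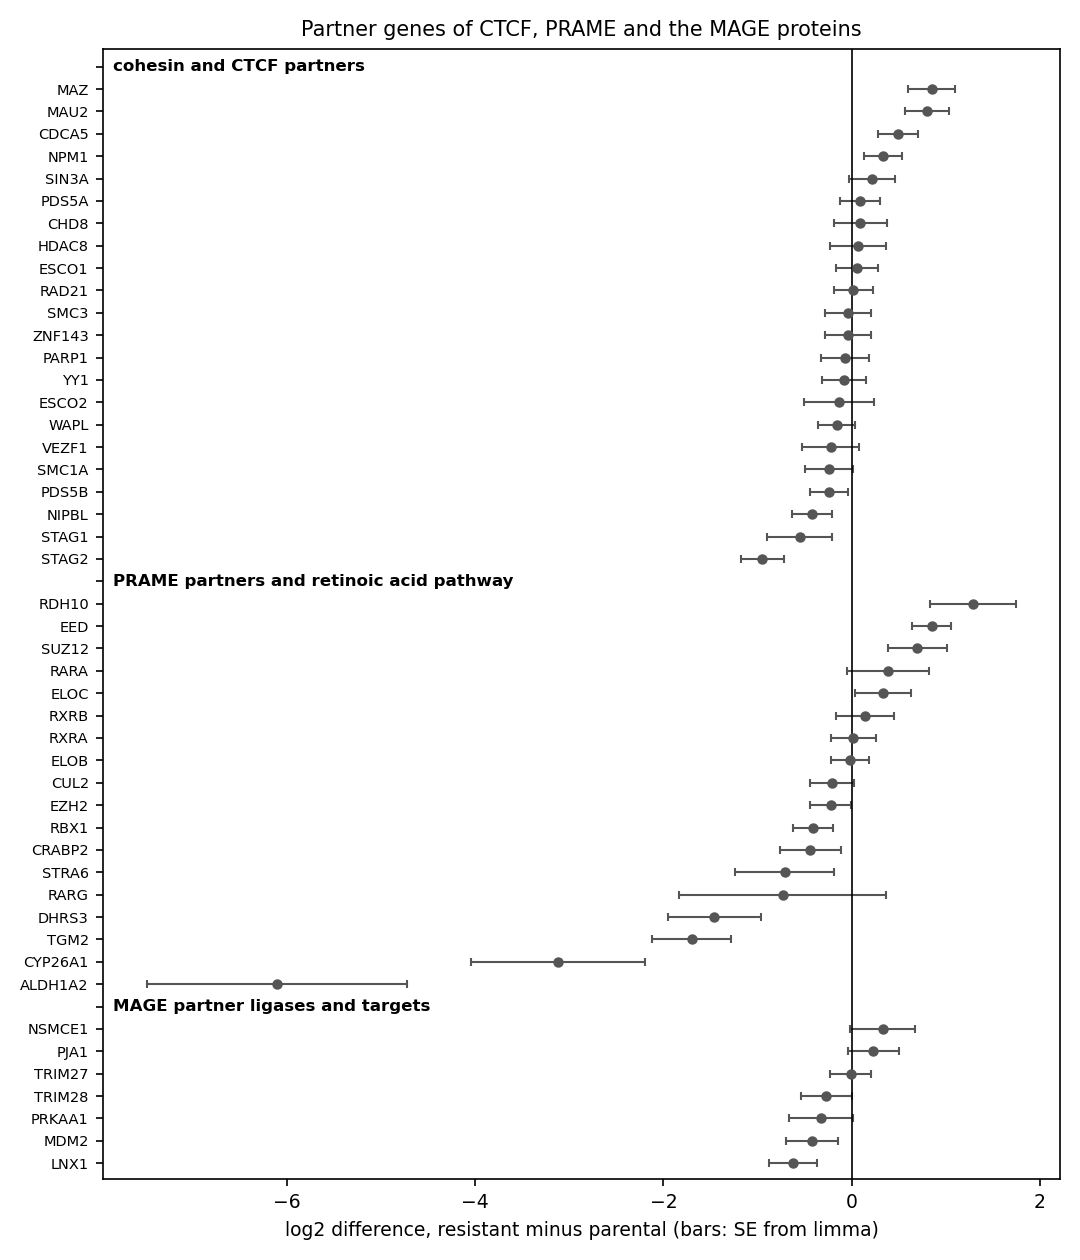
Log2 difference (resistant minus parental) with its SE from limma for each tested gene of the 3 partner lists, by its brightest probe set. No point passed the call rule; STAG2 at -0.95 lies lowest among cohesin and CTCF partners, and ALDH1A2 at -6.11 lowest among PRAME partners and retinoic acid genes.

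The genes beside CTCFL on chromosome 20 did not share its difference. For the 5 tested genes on each side of each of the 9 genes, 64 different genes in all, 0 were called higher and 1 lower, with a median log2 difference of -0.13. CTCFL's 10 neighbours had a median of -0.08, and the nearest tested one on one side, PPP4R1L, had a difference of -1.16 with overlapping arrays (adjusted p = 0.273). The called neighbour was ZNF280A, a zinc finger gene that lies next to PRAME within the immunoglobulin lambda locus of chromosome 22. It averaged 7.87 ± 2.42 in resistant cells and 28.7 ± 2.03 in parental cells, with no overlap (SD, n = 3 each, log2 -1.91, SE 0.289, adjusted p = 0.0271 by limma). The call was lost without resistant array 1 or 2 or parental array 2 or 3 (adjusted p = 0.0516 to 0.107). SSX3 was the tested gene next to SSX1 on X, at 0.0813 to 0.118 in resistant arrays and 0.329 to 4.98 in parental arrays (adjusted p = 0.0950).

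**Figure D4:**
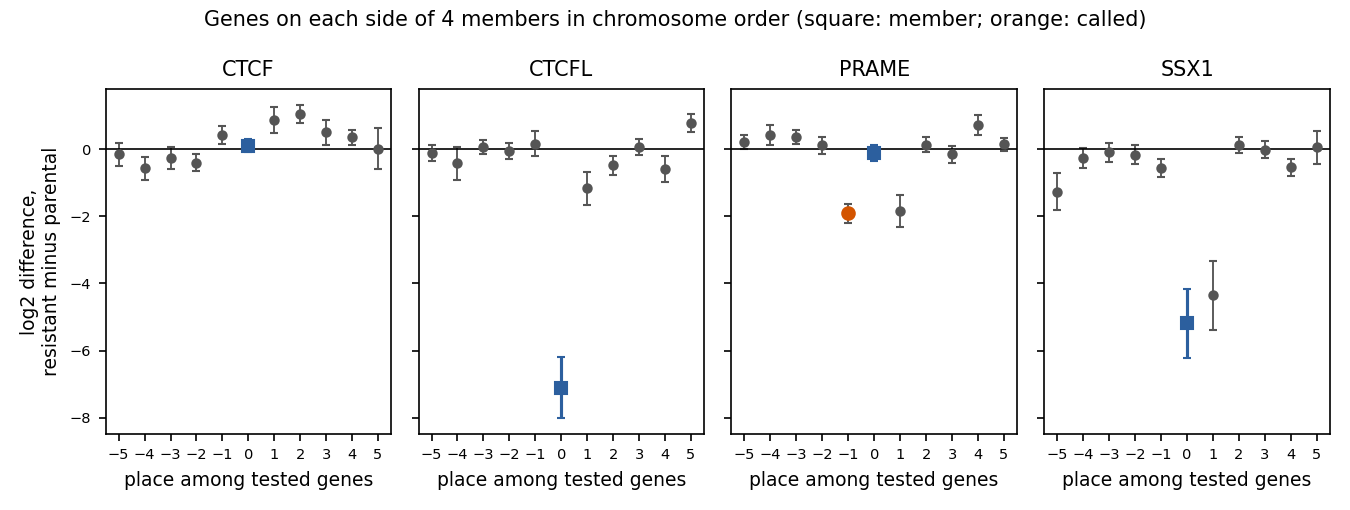
Log2 difference (resistant minus parental) with its SE from limma for the 5 tested genes on each side of CTCF, CTCFL, PRAME and SSX1 in chromosome order, with the member as a square at place 0. CTCFL at -7.10 lies below each of its 10 neighbours, ZNF280A at -1.91 is the called gene beside PRAME, and SSX3 at -4.35 lies next to SSX1.

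The pattern of CTCFL over the 6 arrays was set beside that of 22326 other tested probe sets, by the root mean square difference of log2 levels after each was centred on its own mean. The 3 nearest genes were MUC15, a membrane mucin, at 0.66, CCDC26, a long non-coding RNA, at 0.89, and LYVE1, a hyaluronan receptor, at 0.90. MUC15 read 0.0407, 0.544 and 0.0784 in resistant arrays and 15.1, 10.7 and 11.8 in parental arrays. CCDC26 read 0.0325, 0.0880 and 0.245 in resistant arrays and 15.4, 23.5 and 15.6 in parental arrays. LYVE1 read 0.0488, 0.144 and 0.108 in resistant arrays and 5.79, 7.55 and 4.66 in parental arrays. All 3 were, like CTCFL, in the range of background in every resistant array and above the array median in every parental array. Since the levels in resistant arrays lie in the range of background, the distances and the order of the 3 carry little information.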

How the data were processed

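RNA of 3 resistant and 3 parental K562 samples was hybridized to Affymetrix U133 Plus 2.0 arrays. The deposited values are linear intensities, 1 per probe set, as the authors obtained them from MAS5 (version not given in the sources used here). The medians of the deposited arrays (12.3, 12.5 and 10.2 in resistant, 14.3, 13.1 and 12.7 in parental arrays) differ, so each intensity was divided by its array median, as in the study's methods, set to at least 0.01 and taken to log2. A mean level of at least 1 replaced the control strength filter of the study, which needs its error model. The 62 manufacturer controls were left out. limma 3.58.1 (R 4.3.3, lmFit and eBayes, two-sided, Benjamini-Hochberg over 26692 probe sets) compared the groups. In arrays simulated from these, calls were made for 38 of 70 probe sets given a log2 change of 2, 42 of 59 given 3 and 57 of 71 given 4.

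Of the probe sets, 41097 named 1 gene, 1801 several and 11777 none by the platform annotation. In lists and among neighbours, each gene is represented by the brightest (mean log2 level) of the tested probe sets that name it alone. The genes and lists were chosen with earlier results of these data known. Named were every probe set of the 9 genes, in each list the called genes and the 3 with the highest level, called neighbours and the 3 genes most like CTCFL. Others were named after their values were seen (GAGE, SSX, MAGEC1, MAGEA2, MAGEA9, SSX3, XAGE2, STAG2, SMC1A's dimmer probe set, ALDH1A2, TGM2, RDH10, PPP4R1L and the markers). RefSeq (GRCh38.p14) served for promoter sequence and gene order; the arrays carry no coordinates. The number of arrays limits the precision. Alternatives were other scalings, filters, pseudocounts, an intensity trend, the methods' t-test, a replicate block and leaving out arrays.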

Additional observations from a re-analysis of the deposited data

How the results depend on the processing

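Of the log2 differences of the 9 genes over the settings, 110 moved by less than the spread between replicates and 10 by more. The log2 difference of CTCFL lay between -7.91 and -4.58, and those of SSX1 between -6.18 and -3.13 and between -4.02 and -1.60. That of MAGEB2 ran from -1.11 to 1.40 and has no settled sign, and those of CTCF (-0.09 to 0.20), PRAME (-0.35 to 0.06) and the MAGEA3 and MAGEA6 probe set (-0.26 to 0.03) cross 0. The 319 probe sets called higher with all arrays became 205 with intensities as deposited, 97 with no level filter, 599 with a pseudocount of 1, 563 with an intensity trend and robust prior, 82 by the methods' t-test and 133 with a replicate block, and 103 to 633 when 1 array was left out. The 303 called lower became 77 with no level filter, 455 and 592 with pseudocounts of 0.25 and 1, 570 with the trend, 44 by the methods' t-test and 136 with the block, and 79 to 447 when 1 array was left out. Without parental array 1 and resistant array 3 together, a setting chosen after the data were seen, they were 526 and 488. The 2 MAGE relatives called lower became 1 with no level filter, with the block and without those 2 arrays, 0 by the methods' t-test, and 1 to 2 with 1 array left out. The other X-linked antigens had 0 called lower, against 3 without those 2 arrays and 0 to 3 with 1 left out. Autosomal germline genes had 1 called lower with a level filter of 2, a pseudocount of 1 or the trend (SYCE1), and cohesin partners 1 with quantile normalization (STAG2), each against 0. PRAME partners and retinoic acid genes, with 0 called, had 1 higher without those 2 arrays and 0 to 1 with 1 left out (RDH10), and 1 lower with a level filter of 2, a pseudocount of 0.25 or the trend, and 2 with a pseudocount of 1. Among neighbours 1 was called higher with the trend, against 0, and the 1 called lower became 0 with no level filter, by the methods' t-test and with the block, 4 without those 2 arrays and 0 to 3 with 1 left out. By the methods' t-test 0 genes of the 6 family and partner lists or among the neighbours were called by their brightest probe set, while the XAGE1A and XAGE1B probe set and the dimmer one of SMC1A were. The cause of these shifts was not tested. Replicate numbers did not pair the arrays: deviations of same-numbered arrays correlated at -0.025 to -0.006.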
